A study of Atriplex lentiformis with 8 samples.

Results

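The enzymes that build fatty acids inside the plastid were followed in leaves of quailbush (Atriplex lentiformis), a desert shrub that tolerates salt and uses C4 photosynthesis. The set was 10 Arabidopsis genes, chosen by name: PDH-E1 ALPHA, the acetyl-CoA carboxylase genes CAC1, CAC2 and CAC3, MCAT, the condensing enzymes KASI, KASII and KASIII, MOD1 and ACP4. An assembled Atriplex transcript belonged to the set when its best match among Arabidopsis proteins, with the version suffix removed, was one of these genes. All 10 genes were matched, by 16 of the 46492 transcripts (0.0344%), whereas 12468 Arabidopsis genes were matched in all. Genes are named after these matches, which do not show orthology.

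The design held 4 libraries of leaves from a 43 °C day with a 30 °C night, and 4 of leaves from a 23 °C day with an 18 °C night, which the submitters describe as biological replicates. Each temperature had its own growth chamber, so chamber and temperature cannot be told apart. Both groups were kept under a 16-hour photoperiod at a light intensity of 120 micro Einstein, and the labels give 8 weeks. The labels assign an 18:3 lipid phenotype to the 43 °C leaves and a 16:3 lipid phenotype to the 23 °C leaves. The comparison asks which leaf transcripts, those of lipid synthesis among them, differed between plants of these phenotypes.

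Plant leaves make nearly all their fatty acids in the chloroplast stroma. Plastid pyruvate dehydrogenase supplies acetyl-CoA, acetyl-CoA carboxylase turns it into malonyl-CoA in the committed step, and MCAT moves the malonyl group to acyl carrier protein (ACP), the small protein that holds the growing chain. Each round of elongation then condenses, reduces, dehydrates and reduces again, until a thioesterase releases the chain or an acyltransferase uses it. The carboxylase is a complex of separate subunits in the plastids of most plants, and a single large protein in the cytosol.

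Every abundance below is the authors' mean in FPKM, so single libraries, their spread and their depth are not shown. By its name FPKM is fragments scaled for transcript length and for the number of fragments sequenced, but the authors' exact scaling is not given. Summed as FPKM times length in kilobases, the 23 °C column reached 1084419, more than that definition alone would give. "Rose" and "fell" are used of transcripts with an adjusted p below 0.05 in the authors' deposited table. Standard errors are approximate: each is the one that a normal test would need to give the authors' p-value. The sources used here do not say whether those p-values rest on the spread between plants. A gene is described by its transcript with the highest mean FPKM unless stated otherwise.

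At 43 °C the transcripts of the pyruvate dehydrogenase E1 alpha subunit, the 3 acetyl-CoA carboxylase subunits, MCAT and KASII were lower, while those of the enoyl reductase and the acyl carrier protein were higher. Among the 10 genes, 6 thus fell, 2 rose (MOD1 and ACP4) and 2 did not pass (KASI and KASIII). Of the most abundant transcripts of all matched genes, 57.7% passed, with 26.9% higher and 30.9% lower. Among genes with a mean of at least 5 FPKM, 63.7% passed (26.2% higher and 37.5% lower), so 8 passing genes of 10 were not far from the background. Over the 16 transcripts of the set, 3 rose and 8 fell, against 38.5% of all transcripts passing in either direction (20.7% higher and 17.8% lower). With a mean of at least 5 FPKM, 2 member transcripts rose and 8 fell, where of all 13422 such transcripts 3514 rose and 4726 fell. The median log2 change of the 10 genes was -0.31 in the authors' deposited table, beside -0.012 for all matched genes and -0.087 for those with at least 5 FPKM.

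The changes were small in size. None of the 10 genes passed with a change of at least 2-fold, which 21.9% of matched genes did. That share includes genes below 5 FPKM, and none was taken for the more abundant genes alone. The furthest from 0 was CAC3, whose log2 change the authors' deposited table lists as -0.89. The median absolute log2 change was 0.38 for the set, against 0.51 over all matched genes and 0.43 over those with at least 5 FPKM. Bulk leaf RNA cannot tell fewer cells of a type from less RNA per cell. Weighted by transcript length in kilobases, the FPKM column of 43 °C had a total of 909555 and that of 23 °C a total of 1084419, and equal totals would add 0.25 to every log2 change. Over all transcripts that scaling would give 12953 higher and 5982 lower (68.4% of calls higher), where the deposited values gave 9618 higher and 8291 lower (53.7%). In the set it left only PDH-E1 ALPHA and CAC3 lower, and 4 genes higher: KASI, KASIII, MOD1 and ACP4. Centring on the median of all transcripts instead kept the deposited calls of the set, with 6 genes lower and 2 higher.

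**Figure D1:**
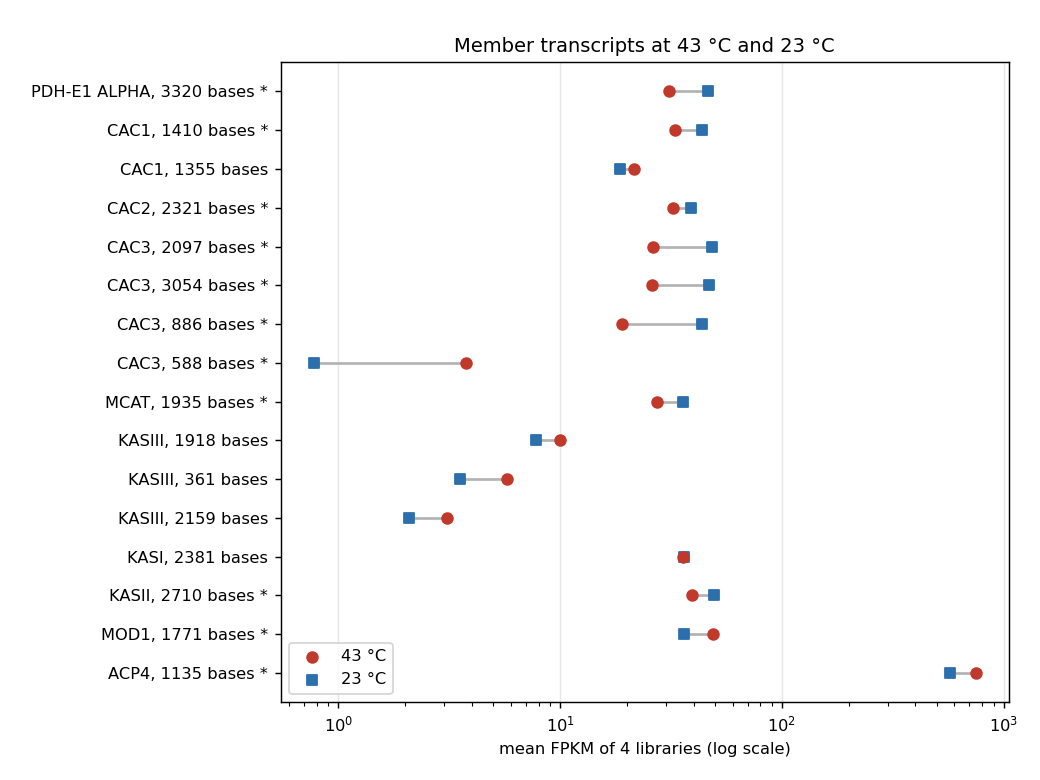
Mean FPKM on a log scale of the 16 member transcripts at 43 °C (circles) and 23 °C (squares), each labelled by gene and transcript length; an asterisk marks an adjusted p below 0.05 in the authors' deposited table. ACP4 lies far to the right of the rest at 748 FPKM at 43 °C, against 574 FPKM at 23 °C, and of the CAC3 transcripts only the 588-base one has its 43 °C value to the right.

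The transcripts of both E1 subunits of plastid pyruvate dehydrogenase fell. PDH-E1 ALPHA (AT1G01090), the E1 alpha subunit that decarboxylates pyruvate in the plastid complex, fell to 31.1 FPKM at 43 °C, against 46.3 FPKM at 23 °C. Its log2 change was -0.58 (approximate SE 0.0745, adjusted p = 1.18e-13 in the authors' deposited table), and it was the only transcript matched to this gene. The partner subunit PDH-E1 BETA fell as well, with 24.3 FPKM at 43 °C, against 36.9 FPKM at 23 °C, so that the E1 alpha to E1 beta ratio was 1.28 at 43 °C and 1.25 at 23 °C. The other components of the complex did not share that direction. EMB3003, an E2 acetyltransferase, rose to 21.4 FPKM at 43 °C, against 15.9 FPKM at 23 °C, and LPD1, the E3 dihydrolipoamide dehydrogenase, rose to 47.0 FPKM at 43 °C, against 36.7 FPKM at 23 °C. LTA2, the other E2 gene, did not pass at 12.51 FPKM at 43 °C, against 12.49 FPKM at 23 °C. LIP1P, the plastid lipoyl synthase that makes the E2 cofactor, fell to 8.74 FPKM at 43 °C, against 15.6 FPKM at 23 °C.

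All 3 acetyl-CoA carboxylase genes fell, and CAC3 had the largest listed change of them, a difference that was not tested. CAC3 (AT2G38040), the alpha subunit of the carboxyltransferase part of the enzyme, had 26.2 FPKM at 43 °C, against 48.4 FPKM at 23 °C, a log2 change of -0.89 (approximate SE 0.0855, adjusted p = 4.62e-24 in the authors' deposited table). CAC1 (AT5G16390), the biotin carboxyl carrier protein, had 32.9 FPKM at 43 °C, against 43.7 FPKM at 23 °C, a log2 change of -0.42 (approximate SE 0.0937, adjusted p = 4.9e-05 in the authors' deposited table). CAC2 (AT5G35360), the biotin carboxylase that loads carbon dioxide onto that carrier, had 32.3 FPKM at 43 °C, against 39.0 FPKM at 23 °C, a log2 change of -0.28 (approximate SE 0.0802, adjusted p = 0.00169 in the authors' deposited table). With equal totals CAC1 and CAC2 would no longer pass (log2 changes -0.16 and -0.030), while CAC3 would still be lower at -0.64. Centred on the median of all transcripts, all 3 would be lower, at -0.51 for CAC1, -0.38 for CAC2 and -0.99 for CAC3.

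By their most abundant transcripts the subunits of the carboxylase lay close together at each temperature but in another order. The highest of the 3 was 1.26 times the lowest at 43 °C and 1.24 times at 23 °C. CAC3 was the lowest of them at 43 °C and the highest at 23 °C, with a CAC3 to CAC2 ratio of 0.813 at 43 °C and 1.24 at 23 °C. CAC1 and CAC2 kept nearer to each other, with a ratio of 1.02 at 43 °C and 1.12 at 23 °C. This order and closeness depend on the choice of transcript: summed over all its transcripts, CAC3 was the highest of the 3 at both temperatures, at 75.0 FPKM beside 54.4 for CAC1 and 32.3 for CAC2 at 43 °C, and at 140.0 FPKM beside 62.3 for CAC1 and 39.0 for CAC2 at 23 °C. Ratios within a temperature are free of the scaling between the columns. They were not tested, and a ratio that differs does not tell which of the genes changed.

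CAC1 and CAC3 were each matched by several assembled transcripts, and these did not all move alike. A second CAC1 transcript of 1355 bases, from a separate assembly component, did not pass at 21.5 FPKM at 43 °C, against 18.6 FPKM at 23 °C, with a log2 change of 0.19 and, in the authors' deposited table, an adjusted p of 0.216. Summed over both, CAC1 had 54.4 FPKM at 43 °C, against 62.3 FPKM at 23 °C, a log2 ratio of -0.20 that equal totals would turn to 0.058. The biotin carrier thus had a transcript that fell beside another that did not pass. Of the 4 CAC3 transcripts, 3 fell. The 3054-base one had 26.0 FPKM at 43 °C, against 47.0 FPKM at 23 °C, and the 886-base one had 19.0 FPKM at 43 °C, against 43.8 FPKM at 23 °C, a change of -1.22 (log2) in the authors' deposited table. The fourth, of 588 bases, rose to 3.77 FPKM at 43 °C, against 0.775 FPKM at 23 °C (log2 change 2.25, approximate SE 0.697, adjusted p = 0.00457 in the authors' deposited table). Its level at 43 °C was the lowest of the CAC3 transcripts, and the sum over all of them was 75.0 FPKM at 43 °C, against 140.0 FPKM at 23 °C. Pieces of a single mRNA each carry its full FPKM, so such a sum can count the same mRNA more than once. Counted as fragments, FPKM times length, the CAC3 log2 ratio was -0.89.

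Genes that attach to or regulate the carboxylase moved in both directions. GLB1, the PII protein that binds the carrier subunit and lowers carboxylase activity in Arabidopsis, rose to 51.9 FPKM at 43 °C, against 32.2 FPKM at 23 °C. Among the BADC proteins, carrier-like subunits that lack biotin and inhibit the enzyme in Arabidopsis, BADC1 rose to 47.1 FPKM at 43 °C, against 36.9 FPKM at 23 °C, whereas BADC3 fell to 25.7 FPKM at 43 °C, against 31.9 FPKM at 23 °C. CTI1, which tethers the carboxyltransferase to the chloroplast envelope in Arabidopsis, fell to 31.9 FPKM at 43 °C, against 40.0 FPKM at 23 °C. CTI3, of the same family, did not pass at 83.3 FPKM at 43 °C, against 78.7 FPKM at 23 °C. HCS1, which attaches biotin to carboxylases, did not pass by its most abundant transcript, with 4.64 FPKM at 43 °C, against 6.39 FPKM at 23 °C, and another HCS1 transcript rose to 6.81 FPKM at 43 °C, against 3.35 FPKM at 23 °C. With equal totals BADC3 and CTI1 would not pass, and CTI3 would pass as higher. The table analysed held no best match to BCCP2, the second carrier gene of Arabidopsis, or to the plastid-encoded ACCD, the beta subunit of the carboxyltransferase.

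MCAT (AT2G30200), the malonyltransferase that hands the carboxylase product to ACP, fell to 27.4 FPKM at 43 °C, against 35.7 FPKM at 23 °C. Its log2 change was -0.39 (approximate SE 0.0874, adjusted p = 5.53e-05 in the authors' deposited table), and -0.13 with equal totals, where it no longer passed. At 43 °C only KASIII and CAC3 were less abundant among the members, and at 23 °C only KASIII.

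Of the 3 condensing enzymes only KASII passed, and KASIII was less abundant than KASI and KASII. KASIII (AT1G62640), which starts each chain by joining acetyl-CoA to malonyl-ACP, was the least abundant member, with 9.97 FPKM at 43 °C, against 7.80 FPKM at 23 °C, and did not pass (log2 change 0.34, approximate SE 0.154, adjusted p = 0.0634 in the authors' deposited table). Its other transcripts did not pass either: the 2159-base one had 3.09 FPKM at 43 °C, against 2.09 FPKM at 23 °C, and the 361-base one had 5.75 FPKM at 43 °C, against 3.52 FPKM at 23 °C. All 3 KASIII transcripts were thus listed higher at 43 °C with none past the threshold, and they summed to 18.8 FPKM at 43 °C, against 13.4 FPKM at 23 °C. KASI (AT5G46290), which extends the chain as far as palmitoyl-ACP, was nearly level, at 35.7 FPKM at 43 °C, against 36.2 FPKM at 23 °C (log2 change -0.028, approximate SE 0.0808, adjusted p = 0.832 in the authors' deposited table). That value turned to 0.23 with equal totals and then passed. KASII (AT1G74960, FAB1), which takes palmitoyl-ACP on to stearoyl-ACP, fell to 39.3 FPKM at 43 °C, against 49.5 FPKM at 23 °C (log2 change -0.34, approximate SE 0.0772, adjusted p = 5.53e-05 in the authors' deposited table), and no longer passed with equal totals at -0.088.

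Set against KASI, the synthase with which they share the chain, KASII and KASIII were nearer to it at 43 °C and MCAT was further from it. These ratios were not tested. The KASII to KASI ratio was 1.10 at 43 °C and 1.37 at 23 °C, and the KASIII to KASI ratio was 0.279 at 43 °C and 0.215 at 23 °C. MCAT stood at 0.768 of KASI at 43 °C and 0.986 at 23 °C.

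**Figure D2:**
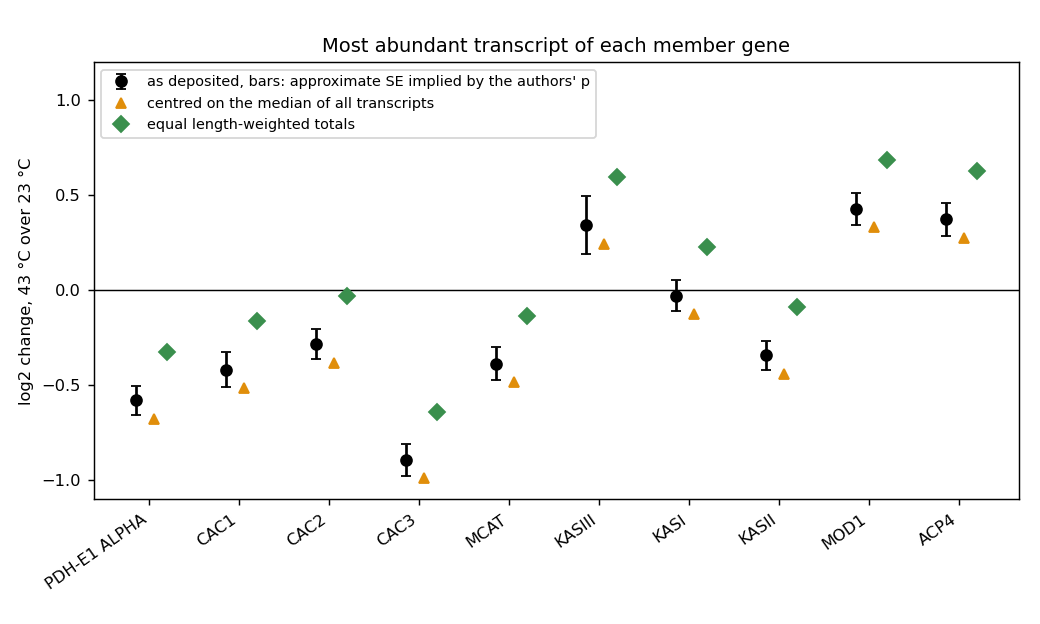
Log2 change (43 °C over 23 °C) of the most abundant transcript of each member gene, in pathway order: circles, as deposited by the authors with bars of 1 approximate standard error; triangles, centred on the median of all transcripts; diamonds, with equal length-weighted totals. Every gene but KASI keeps its side of 0 in each, whereas KASI crosses 0 and CAC2 comes close to it with equal totals.

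The enoyl reductase and the acyl carrier protein rose. MOD1 (AT2G05990), the enoyl-ACP reductase that closes each round of elongation, rose to 48.8 FPKM at 43 °C, against 36.0 FPKM at 23 °C, a log2 change of 0.43 (approximate SE 0.0842) with an adjusted p of 2.46e-06 in the authors' deposited table. Apart from ACP4 it was the most abundant member at 43 °C, and KASII was at 23 °C. Its ratio to KASI was 1.37 at 43 °C and 0.996 at 23 °C, and its ratio to CAC3 was 1.86 at 43 °C and 0.744 at 23 °C. The 2 other matched genes of the reduction and dehydration steps also rose, unlike the condensing enzymes of the cycle, of which KASII fell and KASI did not pass. HAD2, the hydroxyacyl-ACP dehydratase, rose to 25.3 FPKM at 43 °C, against 15.9 FPKM at 23 °C. KAR1, the ketoacyl-ACP reductase, rose to 41.9 FPKM at 43 °C, against 35.8 FPKM at 23 °C (adjusted p = 0.0292 as listed in the authors' deposited table), a call that ended after centring on the median, as log2 0.12.

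ACP4 (AT4G25050), a major acyl carrier protein of Arabidopsis leaves, stood far above the enzymes it serves. It rose to 748 FPKM at 43 °C, against 574 FPKM at 23 °C, a log2 change of 0.37 (approximate SE 0.0870, adjusted p = 9.56e-05 in the authors' deposited table). It was 15.3 times the next member at 43 °C and 11.6 times at 23 °C. By the most abundant transcripts it made up 72.5% of the summed FPKM of the 10 genes at 43 °C and 62.6% at 23 °C. Its match was the weakest of the set (E value 3e-26), and ACP1, ACP2, ACP3 and ACP5 were not the best match of any transcript analysed. The other 9 members lay between 9.97 and 48.8 FPKM at 43 °C and between 7.80 and 49.5 FPKM at 23 °C, and their sum was 284 FPKM at 43 °C, against 342 FPKM at 23 °C. Without KASIII as well, 8 genes lay between 26.2 and 48.8 FPKM at 43 °C and between 35.7 and 49.5 FPKM at 23 °C.

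The genes were chosen by name, but with earlier results of these data known, so their abundance is only described. By mean FPKM, 9 of the 10 genes lay at or above the 80.7th percentile of matched genes, and KASIII lay at the 43.0th. A single assembled transcript was matched to 7 of the 10 genes, beside 53.6% of all matched genes, while CAC1, KASIII and CAC3 had 2, 3 and 4; no test was made of this share.

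**Figure D3:**
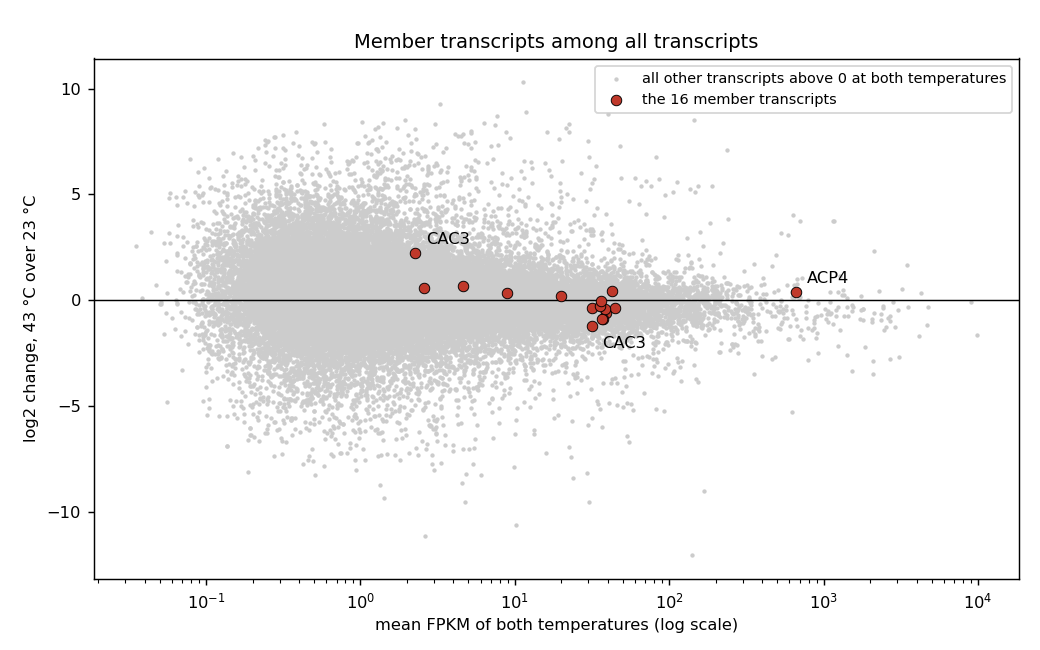
Log2 change (43 °C over 23 °C, the authors' deposited value) against mean FPKM of both temperatures on a log scale, for the 16 member transcripts (large points) and all other transcripts above 0 at both temperatures (small points). Most members sit near 0 among the more abundant transcripts; the labelled point at 2.25 is the 588-base CAC3 transcript.

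Beyond the 10 genes, 38 other genes of the pathway were listed and 23 of them matched: 10 rose, 9 fell and 4 did not pass, and their median log2 change in the authors' deposited table was 0.073. The 19 that passed stand beside 57.7% of all matched genes, and 63.7% of those with at least 5 FPKM. With equal totals 12 of them would be higher and 6 lower. Over their 44 transcripts, 13 rose and 10 fell, beside 38.5% of all transcripts passing.

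At the exit from the pathway, palmitoyl-ACP can be extended by KASII or cut by the thioesterase FATB, and oleoyl-ACP can be cut by FATA1. Acyltransferases can also use either chain and were not followed here, so the ratios below cover only part of this branch point. FATB fell to 41.0 FPKM at 43 °C, against 97.6 FPKM at 23 °C (log2 change -1.26 in the authors' deposited table, beside -0.34 for KASII), and the KASII to FATB ratio was 0.959 at 43 °C and 0.507 at 23 °C. A scarcer FATB transcript rose to 2.78 FPKM at 43 °C, against 1.37 FPKM at 23 °C. FATA1 rose to 23.9 FPKM at 43 °C, against 19.7 FPKM at 23 °C, a call that ended after centring on the median. The FATA1 to FATB ratio was 0.584 at 43 °C and 0.202 at 23 °C. FAB2, the stearoyl-ACP desaturase, fell to 90.3 FPKM at 43 °C, against 103 FPKM at 23 °C, but its log2 change was 0.054 with equal totals.

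Carbon supply to the pathway split as well. CUE1, the plastid phosphoenolpyruvate translocator, which also serves the C4 cycle, fell to 210 FPKM at 43 °C, against 539 FPKM at 23 °C (log2 change -1.37 in the authors' deposited table). ENO1, the plastid enolase, rose to 19.4 FPKM at 43 °C, against 10.2 FPKM at 23 °C. Of the plastid pyruvate kinases, PKP-ALPHA rose to 57.7 FPKM at 43 °C, against 32.0 FPKM at 23 °C, and PKP-BETA1 fell to 6.75 FPKM at 43 °C, against 10.3 FPKM at 23 °C. ACS, which makes acetyl-CoA from acetate, fell to 41.4 FPKM at 43 °C, against 67.1 FPKM at 23 °C, while a scarcer ACS transcript rose to 2.70 FPKM, against 0.5375 FPKM. WRI1, an AP2 factor that activates fatty acid synthesis genes in Arabidopsis seeds, did not pass at 4.95 FPKM at 43 °C, against 3.79 FPKM at 23 °C, although it would with equal totals. Its relative WRI4 rose to 5.30 FPKM at 43 °C, against 2.18 FPKM at 23 °C.

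**Figure D4:**
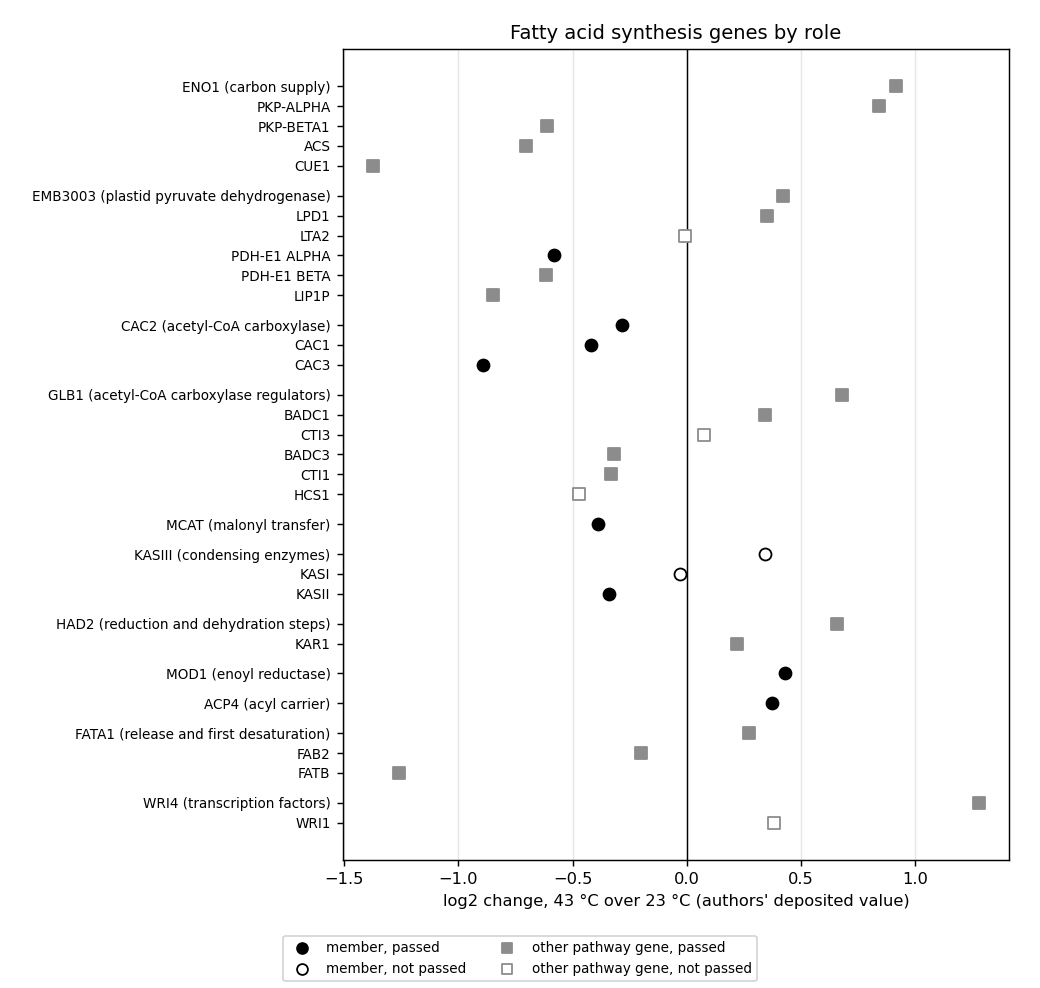
Log2 change (43 °C over 23 °C, the authors' deposited value) of the most abundant transcript of the 10 member genes (circles) and 23 other pathway genes (squares), ordered by role from carbon supply to release; filled symbols passed an adjusted p of 0.05. The pyruvate dehydrogenase E1 genes, the carboxylase subunits and MCAT all lie left of 0, and the reductases, the dehydratase and ACP4 right of it.

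Counterparts of the members in other compartments gave a mixed picture. ACC1, the single-protein carboxylase of the cytosol, did not pass at 32.1 FPKM at 43 °C, against 28.0 FPKM at 23 °C, and the CAC2 to ACC1 ratio was 1.005 at 43 °C and 1.39 at 23 °C. The mitochondrial pyruvate dehydrogenase gene E1 ALPHA (AT1G59900) fell to 60.2 FPKM at 43 °C, against 88.5 FPKM at 23 °C. The plastid E1 alpha gene was 0.516 of it at 43 °C and 0.522 at 23 °C. MAB1, the mitochondrial E1 beta gene, fell to 33.4 FPKM at 43 °C, against 41.7 FPKM at 23 °C, while of its 3 other transcripts 1 rose, 1 fell and 1 did not pass. MECR, the mitochondrial enoyl reductase, rose to 22.3 FPKM at 43 °C, against 10.9 FPKM at 23 °C, and so had the direction of MOD1. Of the mitochondrial acyl carrier proteins, MTACP2 rose to 60.1 FPKM at 43 °C, against 47.5 FPKM at 23 °C, and MTACP1 fell to 44.55 FPKM at 43 °C, against 56.6 FPKM at 23 °C. MTACP3 did not pass at 5.66 FPKM at 43 °C, against 3.73 FPKM at 23 °C, nor did the condensing enzyme MTKAS at 3.48 FPKM at 43 °C, against 4.05 FPKM at 23 °C. A scarcer MTKAS transcript rose to 0.545 FPKM at 43 °C, against 0 FPKM at 23 °C. Of the 8 matched counterparts, 2 rose, 3 fell and 3 did not pass, so 5 passed where 57.7% of all matched genes did, a share near that background. With equal totals MAB1 and MTACP1 would not pass, and ACC1 and MTACP3 would pass as higher.

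Markers of several leaf cell types differed between the temperatures too, beside all of the results above. Photosynthetic markers, matched for 3 of 5 genes, all of which fell by their most abundant transcripts, summed to 11082 FPKM at 43 °C, against 22091 FPKM at 23 °C. Most of that was LHCB1.3, whose 7 transcripts summed to 7014 FPKM at 43 °C, against 16749 FPKM at 23 °C. A second RCA transcript rose to 414 FPKM at 43 °C, against 267 FPKM at 23 °C. Transcripts typical of the labelled tissue were thus abundant at both temperatures. Epidermal markers, with 3 of 5 matched, summed to 238 FPKM at 43 °C, against 119 FPKM at 23 °C, and were uneven. PDF1 rose to 65.9 FPKM at 43 °C, against 0.8025 FPKM at 23 °C, and KCS10 rose to 70.9 FPKM at 43 °C, against 41.4 FPKM at 23 °C. CUT1 did not pass at 29.1 FPKM at 43 °C, against 32.3 FPKM at 23 °C. Vascular markers, with 4 of 4 matched, of which 3 fell and 1 did not pass, summed to 93.1 FPKM at 43 °C, against 266 FPKM at 23 °C. Markers listed for dividing cells, with 2 of 4 matched, both of which rose, summed to 10.5 FPKM at 43 °C, against 1.69 FPKM at 23 °C. CYCB1;1 and CDKB2;1 were not matched, and STM, a meristem gene rather than a gene of cell division, gave 6.89 FPKM of the 43 °C sum. Its most abundant transcript was near the floor at 23 °C (0.0375 FPKM). PCNA1 had 3.60 FPKM at 43 °C, against 0.8175 FPKM at 23 °C. Guard cell markers, with 3 of 3 matched, summed to 18.55 FPKM at 43 °C, against 25.4 FPKM at 23 °C, and none passed by its most abundant transcript. No matched marker transcript was listed at 0 at either temperature, and none of the 3 seed markers was matched. The part of these differences in the results was not tested.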

How the data were processed

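Leaf RNA was sequenced in 8 libraries, 4 at each temperature, grouped by title. The submitters' processing notes name CASAVA 1.8.2 and Bowtie2, without their roles. The sources used here do not give the assembler, the counter, the normalization or the test. What the deposited table holds is, per the file headers, FPKM at each temperature, the authors' log2 fold change, a p-value and its FDR, plus a BLASTx best match among TAIR10 Arabidopsis proteins (E values up to 1e-06). Each FPKM value was a whole multiple of 0.0025 (tolerance 1e-06), which fits a mean over 4 libraries given to 2 decimals, and was read as the authors' mean. A Benjamini-Hochberg adjustment recomputed over the whole table gave the deposited FDR to within 3.2e-07. No test between libraries could be run, and depth is unknown, so the authors' FDR below 0.05 is the only test used.

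Python 3.11.15, pandas 2.3.3, NumPy 2.4.6 and SciPy 1.17.1 were used. Transcripts were joined to genes by locus, and FPKM was summed per locus and also weighted by length. Approximate standard errors are the absolute log2 change divided by the normal quantile of the authors' p, and served to approximate calls under other scalings. These steps were run on simulated data whose p-values came from the same normal test. That checks the arithmetic only, not whether the normal form holds for the authors' p-values. The members and gene lists were chosen with earlier results of these data known. Every member transcript is reported; of the other pathway genes and counterparts every matched gene is named. Alternatives were an FDR of 0.01, minimum means of 1 and 5 FPKM, equal length-weighted totals, median centring, quantile normalization, pseudocounts of 0.1, 1 and 5, E values of at most 1e-30, transcripts of at least 500 bases and a test against a 1.5-fold change. Sequences and genome positions were not used here.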

Additional observations from a re-analysis of the deposited data

How the results depend on the processing

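Scaling moved calls more than directions. With equal length-weighted totals, member transcripts past the threshold would be 7 higher and 4 lower (3 and 8 as deposited) and member genes 4 higher and 2 lower (2 and 6 as deposited). By their most abundant transcripts KASI turned to 0.23 and the other 9 genes kept their sign. Summed over transcripts the log2 ratios were 0.058 for CAC1 (turned), -0.021 for CAC2, -0.65 for CAC3, -0.32 for PDH-E1 ALPHA, -0.12 for MCAT, -0.079 for KASII, 0.23 for KASI, 0.74 for KASIII, 0.69 for MOD1 and 0.63 for ACP4. Against a 1.5-fold change, 1 member transcript was higher and 3 lower, and of member genes 0 higher and 1 lower (CAC3); of the other pathway genes 2 were higher and 2 lower (10 and 9 as deposited). At E values of at most 1e-30 1 member gene was higher, because ACP4 dropped out, which also left it without a summed value. An FDR of 0.01, minimum means of 1 and 5 FPKM, median centring and a minimum of 500 bases kept every member and pathway count within 1.5 times. Pseudocounts and quantile normalization turned no passing member gene, but they moved sizes. A pseudocount of 5 moved 2 of the 10 genes by more than their approximate standard error, and quantile normalization moved 9. With the latter ACP4 stood at 0.93 (0.37 as deposited), KASII at -0.16 (-0.34) and CAC2 at -0.11 (-0.28). KASI, which did not pass as deposited, turned to 0.14. No paired analysis was possible because the table holds means without replicate numbers, and for the same reason no replicate could be left out. Depth is unknown, so what it limits could not be given; the approximate standard error of the most abundant member transcripts, read from the authors' p-values, ran from 0.0745 to 0.154 (log2).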

Other observations

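Enzymes that bear on acetyl-CoA and malonyl-CoA outside the plastid were looked up after their values had been seen. PDK, the kinase that inactivates mitochondrial pyruvate dehydrogenase, fell to 40.2 FPKM at 43 °C, against 63.2 FPKM at 23 °C (log2 -0.66 in the authors' deposited table). Of the 7 transcripts matched to malonyl-CoA decarboxylase (AT4G04320), which breaks down malonyl-CoA, 1 rose, 2 fell and 4 did not pass, with a sum of 6.60 FPKM at 43 °C, against 9.47 FPKM at 23 °C.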
